A study of Rattus norvegicus with 16 samples.

Results

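Obp3, Mup4 and Mup5 are alpha-2u globulins, the major urinary proteins of the rat, and were described here together with Rup2, another secreted urinary protein, and Spink3, a secreted trypsin inhibitor. The members were chosen by name: every non-control probe whose array gene name was Obp3, Mup4, Mup5, Rup2 or Spink3 was taken, which gave 8 probes for 5 genes among the 41012 probes of the array. All 8 lay well above background on each of the 16 arrays, so none was lost to the filter on dim probes. Mup5, Rup2 and Spink3 had a second, dimmer probe, given beside the brighter one throughout. A further 12 probes carried the name or description of another alpha-2u globulin or urinary protein, and 11 of them passed the filter.

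The liver of male rats of the inbred Lewis strain was compared at 3, 9, 12, 18 and 24 months of age, with 3 samples at each age and 4 at 24 months, 1 array each. No group had been given a treatment. All rats lived in specific pathogen-free housing on a 12-h light/dark cycle with food and water freely available, and the livers had been snap-frozen. Whether each sample was a separate animal was not stated, so p-values measure the spread between these samples, which may be technical, and the hour of collection was not stated either.

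Alpha-2u globulins are lipocalins, small barrel-shaped proteins that hold a hydrophobic ligand. The liver of the adult male rat makes them in large amounts under the control of androgens and pulsatile growth hormone, and they pass from blood into urine, where they carry pheromones. Rup2 belongs to a different fold, that of the Ly6 family, and is also excreted in urine. Spink3 is a Kazal-type inhibitor best known from the acinar cells of the pancreas, where it holds trypsin in check, and its current RefSeq symbol is Spink1.

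Because the alpha-2u globulin genes are near-copies, the probes show how far each signal belongs to 1 gene. The Obp3 probe lies at chr5:78090663-78090722 and the Mup4 probe at chr5:78217919-78217978, both on the minus strand of rn4, the build named in the array files. They read the same stretch of the transcript, and 53 of 60 bases were identical. Capitals mark the 7 bases that differ, which are G8T, A25G, T26A, T36A, T41C, C44T and C56G from Obp3 to Mup4, counted from 1 at the 5′ end.
Obp3 probe: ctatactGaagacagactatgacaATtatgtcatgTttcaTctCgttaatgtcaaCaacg
Mup4 probe: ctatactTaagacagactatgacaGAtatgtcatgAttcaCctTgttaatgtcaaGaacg

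The Rup2 probe, at chr8:36681036-36681095 on the plus strand, overlaps in the same way with the probes of its close relatives Rup-3 (chr8:36893624-36893683) and a predicted urinary protein 2-like gene, LOC100912870 (chr8:37044287-37044346). Of 56 overlapping bases, 48 were identical between Rup2 and Rup-3, and of 55, 48 were identical between Rup2 and LOC100912870. Capitals mark the bases of the relative that differ from Rup2.
Rup2 probe: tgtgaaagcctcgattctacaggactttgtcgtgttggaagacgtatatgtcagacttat
Rup-3 probe: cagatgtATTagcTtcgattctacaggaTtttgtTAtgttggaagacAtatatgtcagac
LOC100912870 probe: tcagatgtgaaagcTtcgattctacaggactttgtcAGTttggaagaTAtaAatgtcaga

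Some probes were assigned to a member under another name. All 3 probes named LOC259245 also list the RefSeq transcript of Mup5, and 1 probe named LOC259246 lists a transcript of Obp3. Conversely, the second probes of Mup5 (chr5:78981079-78981138, minus strand) and Rup2 (chr8:37239986-37240045, plus strand) were designed on cDNA sequences with no match in the current RefSeq table. The first Mup5 probe lies at chr5:78468225-78468284 on the minus strand. How much each probe hybridises to the other copies was not tested, so every value below is that of a probe, and no amounts are compared between genes.

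As background to the series, between 53.0% and 65.6% of an array's probes were called well above background, no spot was saturated, and 25698 probes were tested. Values are log2 signal minus the array's own 75th percentile, so a difference of 1 is a factor of 2 and a negative value lies below that percentile. The 24-month arrays filled 3 slides and 1 scan day of their own, so scan day and the age of 24 months cannot be told apart. The 18-month arrays were all on slide 7, which held no other age, so slide and the age of 18 months cannot be told apart either. They were scanned on day 3, shared only with arrays 3 and 4 of the 12-month group. Differences of 18 months from 3, 9 or 24 months therefore cross scan days. Array 2 of the 12-month group and arrays 3 and 4 of the 24-month group correlated least with the others of their age (mean r 0.965, 0.974 and 0.975), and the member comparisons were repeated without them. Hepatocyte markers were bright on all 16 arrays, with a mean log2 value over 10 genes of 7.85 to 8.53, the lowest on array 3 of the 24-month group. Between 24 and 3 months 0 of 10 passed the limma test (1 at an unadjusted p under 0.05), against 12.4% of all probes tested.

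Obp3, also known as alpha-2u globulin PGCL4, was lower at 24 months than at every younger age. On the 3-month arrays its log2 signal was 5.14, 5.29 and 5.42, on the 9-month arrays 5.35, 6.07 and 5.98, and on the 12-month arrays 3.17, 6.68 and 5.68. The 18-month arrays gave 6.49, 6.25 and 6.25, and the 24-month arrays 3.498, 1.07, -1.47 and 3.77. The 24-month values overlapped with the others through 1 array only, array 2 of the 12-month group, and within the 24-month group they spread over more than 5 log2 units. The mean was 1.72 ± 2.45 (SD, n = 4) at 24 months, against 5.28 ± 0.14 at 3 months and 6.33 ± 0.13 at 18 months (both n = 3). The fall from 18 to 24 months was 24.5-fold (log2 difference -4.61 ± 1.03, SE; limma adjusted p = 0.00525), and that from 3 to 24 months was 11.9-fold (-3.57 ± 1.03; adjusted p = 0.0375). Against 9 and 12 months the differences were -4.08 (adjusted p = 0.0166) and -3.46 (adjusted p = 0.0399). The fall from 18 months passed the test when any single array was left out, but its size rested on single arrays of the 24-month group, being 11.7-fold without array 3, 37.0-fold without array 1 and 39.4-fold without array 4. The fold from 3 months was 5.69 without array 3. The difference from 3 months was lost without any 1 of the 3-month arrays (adjusted p up to 0.110), of the 18-month arrays (up to 0.0508), or of arrays 2 (0.0831) and 3 (0.0509) of the 24-month group. That from 9 months was lost without array 2 (0.0607) or 3 (0.0565) of the 9-month group, and that from 12 months without any 1 of 13 arrays (0.0510 to 0.122). In the order of ages by mean, 18, 9, 3, 12 and 24 months, only the last step passed the test. All ages shared 1 estimate of the spread, which includes the wide 24-month group. The 18-month arrays all lay above the 3-month arrays, by 1.05 in the mean (adjusted p = 0.538). In a limma fit of those 2 ages alone this difference passed (0.000929), but over all settings it ranged from -0.56 to 1.14.

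Mup4, the major urinary protein 4, had nearly the same profile. The 3-month arrays gave a log2 signal of 5.64, 5.68 and 5.45, the 9-month arrays 5.77, 5.62 and 5.74, the 12-month arrays 4.69, 6.55 and 6.51 and the 18-month arrays 6.48, 6.73 and 6.63. At 24 months it was 4.31, 2.58, -0.47 and 4.58, below every younger array. The fall from 18 to 24 months was 14.5-fold (-3.86 ± 0.89; limma adjusted p = 0.00641). It passed the test without any single array, and was 6.89-fold without array 3 of the 24-month group and 22.1-fold without array 4. The 7.15-fold difference from 3 months missed the threshold (-2.84 ± 0.89; adjusted p = 0.0531), and passed it without array 1 (0.0331), 3 (0.0359) or 4 (0.0186) of the 24-month group or array 2 of the 12-month group (0.0432). Differences from 9 and 12 months were -2.96 (adjusted p = 0.0378) and -3.17 (0.0315). The first was lost without any 9-month array (0.0933 to 0.103), any 3-month array (up to 0.0509), array 3 (0.0503) or 4 (0.05001) of the 18-month group or array 2 of the 24-month group (0.0729). The second was lost without array 3 (0.0824) or 4 (0.100) of the 12-month group or array 2 of the 24-month group (0.0669). The 18-month arrays of Mup4 also lay above its 3-month arrays, by 1.02 in the mean (adjusted p = 0.483). This passed in a limma fit of those 2 ages alone (0.000785), and over all settings it ranged from 0.04 to 1.11. For both Obp3 and Mup4, array 2 of the 12-month group stood below the other 2 arrays of its age.

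Mup5, the major urinary protein 5, was lower on most of the 24-month arrays, but its age difference did not pass the test. The brighter probe read 9.58, 9.61 and 9.37 at 3 months, between 9.53 and 9.74 on all arrays of 9 and 12 months, and 9.38, 9.41 and 9.39 at 18 months. At 24 months it read 9.01, 8.45, 6.36 and 9.44, so that array 4 lay within the range of the younger ages and array 3 lay 3.16 below the 3-month mean, an 8.96-fold difference for that array. The mean difference from 3 months was -1.21 ± 0.50 (limma adjusted p = 0.137), and without array 4 of the 24-month group it was -1.58 (adjusted p = 0.0375). Without array 3 it was -0.56 (adjusted p = 0.0717), and the difference from 12 months then passed (-0.72; adjusted p = 0.0286). The second probe read 8.73, 8.73 and 8.51 at 3 months, 7.73, 8.97 and 8.80 on the 12-month arrays and 8.16, 6.26, 4.36 and 8.50 at 24 months. Its difference from 3 months was -1.84 ± 0.72 (adjusted p = 0.118). It was -2.40 without array 4 (adjusted p = 0.0289) and -1.02 without array 3 (0.173).

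**Figure D1:**
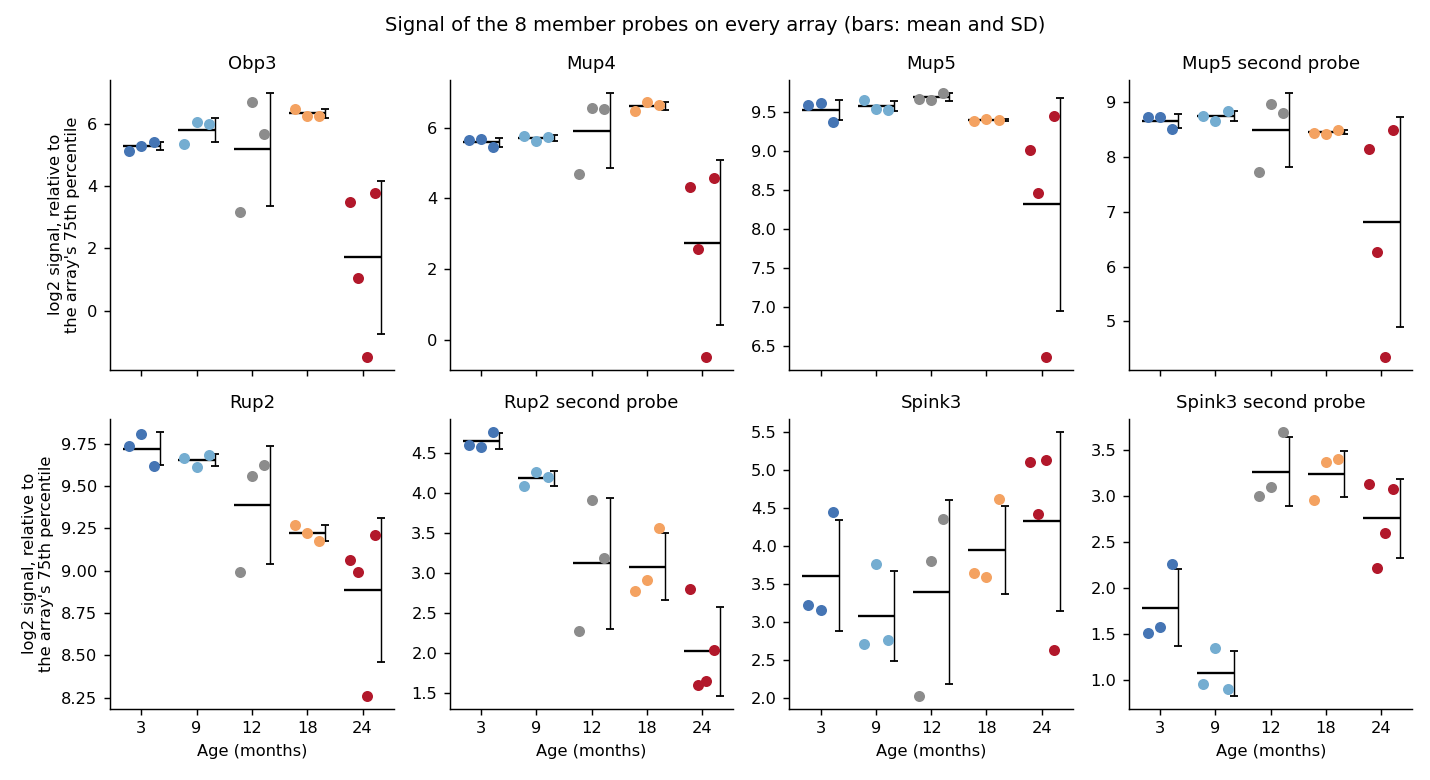
Log2 signal relative to the array's 75th percentile (y axis, a separate scale per panel) against age in months (x axis) for the 8 member probes. Each point is 1 array, the horizontal bar is the mean and the vertical bar the SD. At 24 months the points of Obp3 run from -1.47 to 3.77 and those of Mup4 from -0.47 to 4.58, while both Rup2 probes descend over several ages.

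The 24-month arrays ranked alike across the lipocalin family. Counting the 4 member probes and the 9 other alpha-2u globulin probes that passed the filter, array 3 was the lowest of the 16 arrays for 13 of 13 probes, and array 2 was the next lowest for 12 of 13. Relative to each probe's 3-month mean, array 3 lay between -7.52 and -1.19 (median -3.44) and array 2 between -4.22 and -0.23 (median -1.39). Arrays 1 and 4 stood closer, with medians of -0.52 and -0.21, and array 4 was below all younger arrays for only 5 of 13 probes. Over the 19891 probes above background on every array, the median of the same difference was -0.06 for array 3 and 0.01 for array 2, and the lowest 5% lay below -0.97 and -0.83. These genes are near-copies, and how far the 13 probes read the same transcripts was not tested. Arrays 1 and 2 shared slide 4, while array 3 was the only array on slide 5 and array 4 the only one on slide 3. The 75th percentile intensity that was subtracted was 358, 326, 411 and 196 on arrays 1 to 4. For arrays 3 and 4, slide and sample cannot be told apart, and the part of array brightness was not tested.

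**Figure D2:**
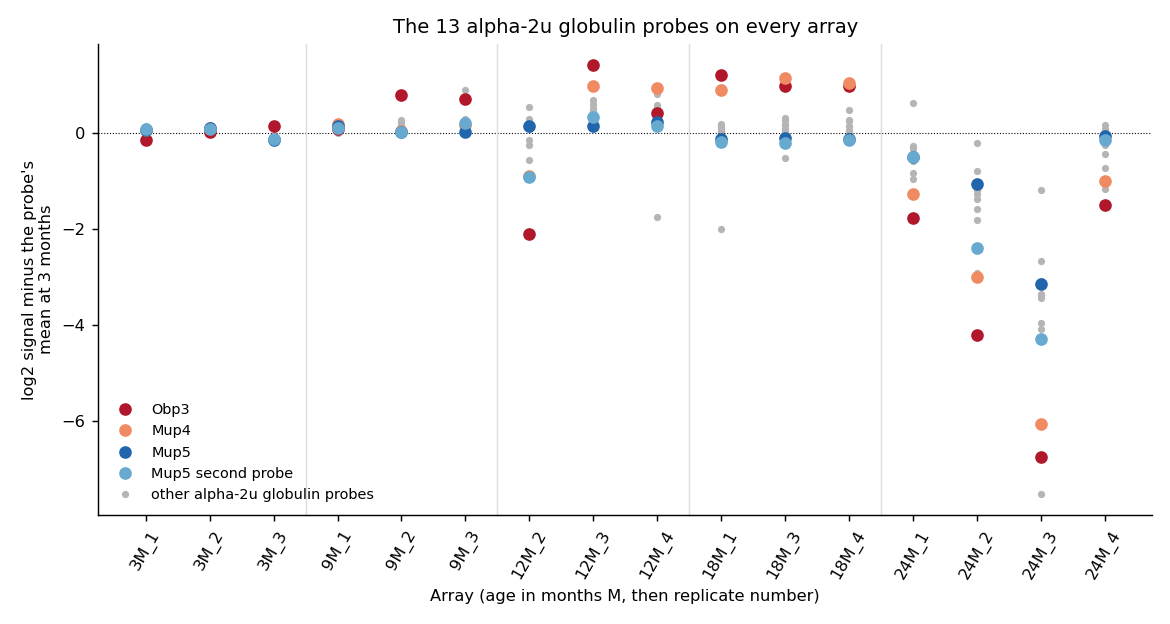
Log2 signal minus the probe's own mean at 3 months (y axis) on each of the 16 arrays (x axis) for the 13 alpha-2u globulin probes, coloured for the 4 member probes and grey for the rest. On array 3 of the 24-month group all 13 points are at their lowest, from -7.52 to -1.19, and on array 4 they lie between -1.52 and 0.16.

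Of the 9 other alpha-2u globulin probes, 2 passed the F test for any age difference, both named LOC259245 (limma adjusted p = 0.0219 and 0.0371), against 35.6% of all probes tested. From 3 to 24 months all 9 differences were negative (-2.75 to -0.39), and 1 passed (LOC259245, adjusted p = 0.0498), against 12.4% of all. From 18 to 24 months all 9 were negative as well, and 2 passed, against 23.9%. From 12 to 24 months 4 of 9 passed, all lower, against 14.1%, and from 9 to 24 months 2 of 9, against 15.8%. The probe with the widest range was drawn from a genomic alpha-2u globulin sequence: on array 3 of the 24-month group it stood at -7.52 relative to its 3-month mean, but on array 1 it stood 0.62 above that mean. The probe of LOC259246 that also lists an Obp3 transcript, with a 3-month mean of 9.65, moved least, by -1.19 on array 3. Over the 13 alpha-2u globulin probes, the difference on array 3 was smaller for probes brighter at 3 months (r = 0.93). Its median was -3.13 for the 6 probes at 9 or above and -6.75 for the 3 below 6. The part of probe brightness in the sizes of these falls was not tested, for Mup5 against Obp3 and Mup4 as well.

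Rup2 fell with age, and both of its probes passed the test for a trend. The brighter probe read 9.74, 9.81 and 9.62 on the 3-month arrays, 9.66, 9.61 and 9.68 on the 9-month arrays and 8.99, 9.56 and 9.62 on those of 12 months. It read 9.27, 9.22 and 9.17 at 18 months and 9.07, 8.99, 8.26 and 9.21 at 24 months. All values at 18 and 24 months lay below all values at 3 and 9 months. The mean at 24 months was 1.79-fold below that at 3 months (-0.84 ± 0.20; limma adjusted p = 0.0158) and 1.70-fold below that at 9 months (-0.77 ± 0.20; adjusted p = 0.0207). The first was lost without array 1 (0.0607) or 2 (0.0711) of the 3-month group and the second without any 1 of the 9-month arrays (0.0568 to 0.0667). The slope was -0.041 ± 0.0087 log2 units per month (adjusted p = 0.0120). No single step between neighbouring ages in the order 3, 9, 12, 18 and 24 months passed the test.

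The second Rup2 probe had a lower mean at each older age, and whether it fell by more than the brighter probe was not tested. It read 4.60, 4.58 and 4.77 on the 3-month arrays, 4.09, 4.27 and 4.21 on the 9-month arrays, 2.28, 3.91 and 3.19 on those of 12 months and 2.77, 2.91 and 3.56 on those of 18 months. At 24 months it read 2.81, 1.60, 1.65 and 2.04, and no array of 3 or 9 months overlapped with those of 12 months or older. The mean at 24 months was 6.17-fold below 3 months (-2.62 ± 0.35; limma adjusted p = 0.00035), 4.48-fold below 9 months (adjusted p = 0.00130) and 2.08-fold below 18 months (adjusted p = 0.0405). The differences from 3 and 9 months held without any single array, and that from 18 months was lost without any 1 of 12 of the 16 arrays (0.0514 to 0.168). The difference from 12 months (-1.10; adjusted p = 0.0496) was lost without any 1 of 14 of the 16 (0.0521 to 0.167). From 3 months, the fall was already 2.88-fold by 12 months (adjusted p = 0.0205) and 2.96-fold by 18 months (adjusted p = 0.00895). The 12-month value was lost without any 1 of the 3-month arrays (0.0603 to 0.0764) or array 4 of the 12-month group (0.05002). Its slope was -0.123 ± 0.016 log2 units per month (adjusted p = 0.000946).

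The relatives of Rup2 declined as well. The Rup-3 probe and the LOC100912870 probe passed the F test (limma adjusted p = 0.00325 and 0.000912) and the trend (-0.054 and -0.057 log2 units per month; adjusted p = 0.0095 and 0.00304). On array 4 of the 24-month group, where most lipocalin probes were near their 3-month means, the 4 probes of the urinary protein group still lay between -2.61 and -0.51. Since Rup2, Rup-3 and LOC100912870 share most bases of their probes, shared changes and shared hybridisation cannot be told apart.

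**Figure D3:**
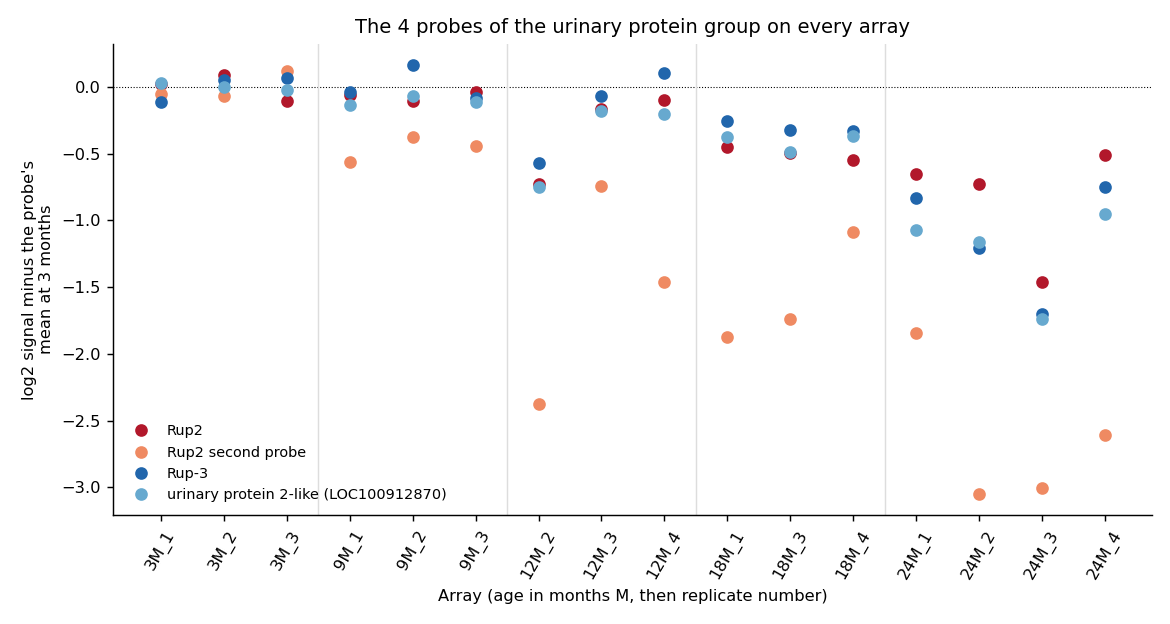
Log2 signal minus the probe's own mean at 3 months (y axis) on each of the 16 arrays (x axis) for Rup2, its second probe, Rup-3 and LOC100912870. All 4 probes lie below 0 on every 18-month and 24-month array, and the second Rup2 probe lies lowest, down to -3.05.

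The probes of Spink3 gave different profiles, though the difference between them was not tested. The first, which crosses introns between chr18:37135620-37144182 on the minus strand, read 3.22, 3.17 and 4.45 on the 3-month arrays, 2.71, 3.77 and 2.76 on the 9-month arrays and 2.04, 3.80 and 4.35 on those of 12 months. The 18-month arrays gave 3.64, 3.59 and 4.62, and the 24-month arrays 5.11, 4.43, 5.13 and 2.64. All ages overlapped, and no comparison passed the test (F test, limma adjusted p = 0.454). The difference between 24 and 3 months was 0.71 ± 0.64. Without array 4 of the 24-month group it was 1.28 (adjusted p = 0.150), and the difference from 9 months then passed (1.81; adjusted p = 0.0346).

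The second Spink3 probe (chr18:37133524-37133583, minus strand), designed on a cDNA described as like pancreatic secretory trypsin inhibitor, stepped up between 9 and 12 months. It read 1.51, 1.58 and 2.27 at 3 months and 0.96, 1.35 and 0.91 at 9 months. The 12-month arrays gave 3.00, 3.098 and 3.70, the 18-month arrays 2.96, 3.37 and 3.40, and the 24-month arrays 3.14, 2.22, 2.60 and 3.08. No array of 9 months overlapped with any later one. The 12-month mean was 4.57-fold above that at 9 months (2.19 ± 0.28; limma adjusted p = 0.00145) and 2.79-fold above that at 3 months (adjusted p = 0.0059), and the 18-month mean was 4.50-fold above that at 9 months (adjusted p = 0.000341). These held without any single array. The 24-month mean was 1.96-fold above that at 3 months (0.97 ± 0.26; adjusted p = 0.0267), and this was lost without array 1 (0.125) or 2 (0.116) of the 3-month group or array 1 (0.0709) or 4 (0.0532) of the 24-month group. On slide 2, which held 1 array of 12 months and 2 of 9 months, the difference between those ages was 2.07, close to that of the whole comparison.

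Scan days 1 and 3 divided the 12-month group, and the arrays of scan day 1 allow the ages of 3, 9 and 12 months to be compared within a day. With array 2 of the 12-month group as its only array of that age, the second Spink3 probe was 1.93 above 9 months, and Obp3, Mup4, Rup2 and its second probe were 2.63, 1.02, 0.66 and 1.91 below. Relative to 9 months, the first Spink3 probe stood at -1.05, opposite in sign to the second. The second Mup5 probe stood at -1.02 and the first at 0.09. Within scan day 3, 18 and 12 months differed by no more than 0.47 for any of the 8 probes.

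Across the 8 member probes, 5 passed the F test for any age difference, against 35.6% of all probes tested. Without array 2 of the 24-month group 3 of 8 passed, since Obp3 (0.0501) and Mup4 (0.0571) did not, and Rup2 was lost without array 1 (0.0541) or 2 (0.0577) of the 3-month group. A trend passed for 2 of 8, both of Rup2, against 5.45% of all. From 3 to 24 months 4 of 8 passed, 3 lower and 1 higher, against 12.4%. From 9 to 24 months 5 of 8 passed, 4 lower and 1 higher, against 15.8%. From 12 to 24 months 3 of 8 passed, against 14.1%, and from 18 to 24 months 3 of 8, against 23.9%, all lower. Among the younger ages, 2 of 8 passed from 3 to 12 months (background 10.3%), 2 of 8 from 3 to 18 months (22%), 1 of 8 from 9 to 12 months (6.19%) and 1 of 8 from 9 to 18 months (17.5%). From 3 to 9 months and from 12 to 18 months 0 of 8 passed, where 4.67% and 1.22% of all probes did (limma; 1 and 0 at an unadjusted p under 0.05). The median of the 8 probes from 3 to 24 months was -1.52, and that of all probes tested was -0.04.

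**Figure D4:**
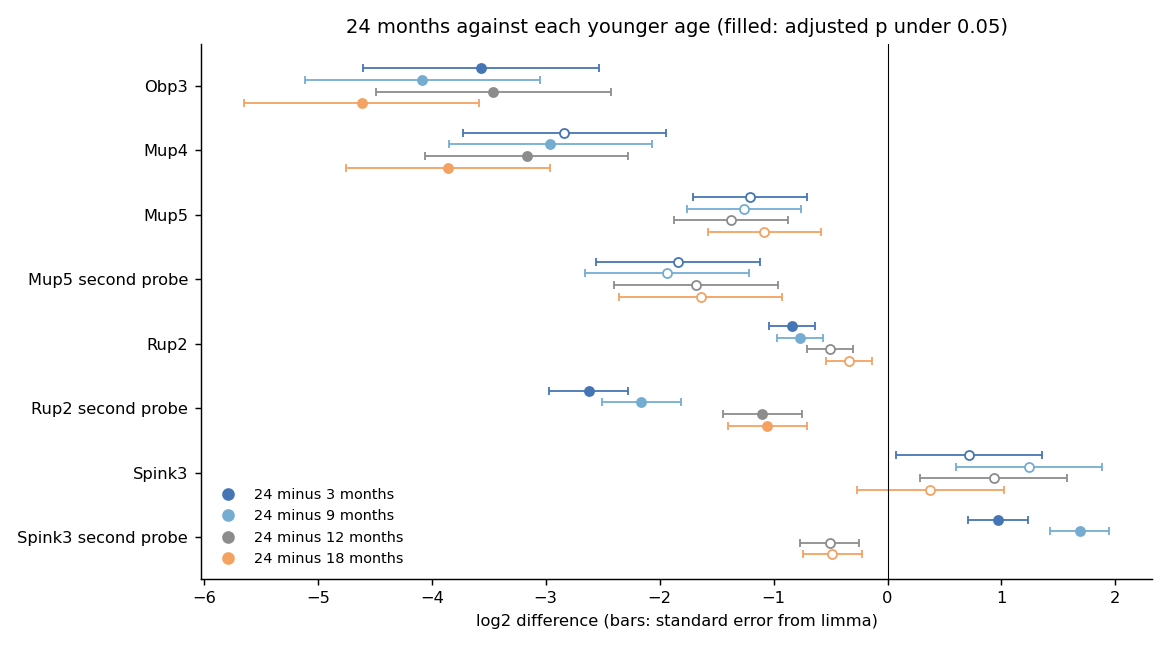
Log2 difference of 24 months from each younger age (x axis) for the 8 member probes (y axis), with the standard error from limma as bars. Filled points have an adjusted p under 0.05. The differences of Obp3 and Mup4 lie between -4.61 and -2.84, those of the second Rup2 probe between -2.62 and -1.06, and those of the first Spink3 probe are positive and open.

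Settings other than leaving out an array ended many of these calls. Among the 80 differences between ages, 10 for each probe, 21 passed the test. With the slide as a random block 7 of the 21 remained, and with the scan day as one 6. The slide block ended the falls of Obp3 and Mup4 from 18 to 24 months (limma adjusted p = 0.143 and 0.129) and from 12 to 24 months (0.234 and 0.170), that of Obp3 from 3 months (0.216) and that of Mup4 from 9 months (0.0727). It also ended the difference of Rup2 between 24 and 3 months (0.0854), those of the second Rup2 probe from 3 to 18 (0.338), 12 to 24 (0.393) and 18 to 24 months (0.517), and those of the second Spink3 probe from 3 to 24 (0.351), 9 to 24 (0.0612), 3 to 18 (0.279) and 9 to 18 months (0.179). The F tests of Obp3 (0.0561) and Mup4 (0.0849) were lost with it as well. With the scan day block the falls of Obp3 and Mup4 from 18 to 24 months gave 0.385 and 0.394, and in a fit of those 2 ages alone that of Mup4 gave 0.056.

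Background correction and scaling mattered for some probes. With normexp background correction 11 of the 21 calls were lost, among them Obp3 (0.0599), Rup2 (0.115) and the second Spink3 probe (0.366) between 24 and 3 months, and so was the F test of Rup2 (0.238). The difference of Rup2 between 24 and 9 months was -0.48 with quantile normalization (limma adjusted p = 0.0560) and -0.47 in the authors' deposited value table (0.0921), where the F test of Rup2 was lost too (0.0546).

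Without the 3 arrays that correlated least with their age, a comparison chosen after the data were seen, the differences between 24 and 3 months were -3.003 for Obp3 (limma adjusted p = 0.00407), -2.14 for Mup4 (0.00245), -0.79 for Mup5 (0.00405), -1.45 for its second probe (0.0241), -0.69 for Rup2 (0.000606) and -2.45 for its second probe (0.000803). All 6 were lower and passed the test, but leaving out arrays that stood apart from their age itself narrows the spread behind the p-values. At 24 months only arrays 1 and 2 remained, both on slide 4, so in this setting slide and the age of 24 months cannot be told apart. The second Spink3 probe was 0.89 higher (0.0678). In that setting this call was lost and 19 of the 21 remained. The other call lost was the fall of the second Rup2 probe from 18 to 24 months (-0.88; adjusted p = 0.0707). The falls from 18 to 24 months were -4.05 for Obp3 (0.000372) and -3.16 for Mup4 (0.000109), and 15 differences that had missed the threshold passed it.

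Other genes of the same systems were read from lists. Of all probes tested, 35.6% passed the F test and 12.4% the test between 24 and 3 months. Of 23 secreted lipocalins outside the alpha-2u group, 9 were measured, 2 passed the F test and 1 was lower at 24 than at 3 months, with a median difference of -0.20. Lcn5, an epididymal lipocalin that binds retinoids, was at -2.31 at 3 months and -3.86 at 24 months (limma adjusted p = 0.013). It was well above background on only 14 of the 16 arrays. On arrays 1 and 2 of the 24-month group it read -4.83 and -4.14, where the dimmest probe above background read -4.34 and -4.15. Orm1, the acute-phase orosomucoid, passed the F test (adjusted p = 0.021) and was at 8.74 ± 0.13 (n = 3) at 3 months and 7.50 ± 0.87 (n = 4) at 24 months. Lcn2, the acute-phase lipocalin that binds bacterial siderophores, was at 8.53 on array 3 of the 24-month group, where the alpha-2u globulins were lowest, against 0.47, 2.06 and 0.08 on the other 24-month arrays and 2.89 to 3.03 at 3 months. Ambp, the fourth by p-value, passed neither test (F test adjusted p = 0.055). In the Spink family, 3 of 10 listed names were measured by 2 probes, with 1 probe shared by Spink1 and Spink1l. The probes of the member Spink3, whose current symbol is Spink1, were left out of this list. Of the 2 probes, 0 passed limma's F test or its test between 24 and 3 months, also at an unadjusted p under 0.05.

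The counts in the lists below stand against 35.6% of all probes tested for the F test and 12.4% between 24 and 3 months. Of 24 genes of growth hormone, STAT5 and nuclear hormone receptor signalling and of the liver factors around it, 15 passed the F test. Between 24 and 3 months 2 were higher and 3 lower (median -0.16). Dbp, a PAR-domain factor whose transcript follows the hour of the day, had means of -0.59 and -0.36 at 3 and 9 months, and of 5.41, 4.75 and 4.11 at 12, 18 and 24 months. Stat5b, a transducer of growth hormone pulses, had means of -0.25, -0.31, -1.39, -1.41 and -1.30 at 3, 9, 12, 18 and 24 months. It was lower at 24 than at 3 months (-1.05; limma adjusted p = 0.004), but not at 24 than at 18 months (0.11; adjusted p = 0.734). Socs2, a feedback inhibitor of growth hormone signalling, had means of 1.43, 1.89, -2.04, -2.80 and -0.49 at the same ages. Its difference between 24 and 3 months did not pass (adjusted p = 0.134). From 18 to 24 months, where Obp3 and Mup4 fell, 2 of the 24 genes were higher and 1 lower, against 23.9% of all probes tested. Socs2 was higher by 2.31 (adjusted p = 0.0463) and Jak2 by 0.52 (0.0291), while the difference of Cish was -1.69 (0.0141). The part of this signalling in the falls was not tested. Of 13 listed male-biased liver genes 12 were measured. The other, Ca3, was searched under that name only and is not counted, although a probe named Car3 was measured. Among the 12, 5 passed the F test and 2 were lower at 24 than at 3 months (median -0.45). These were Rgn, the calcium-binding regucalcin (-0.94; adjusted p = 0.003), and Cyp2c13, a male-specific P450 (-0.89; adjusted p = 0.017), which read 8.50, 8.03, 7.89 and 9.08 on the 24-month arrays. Hsd17b2 and Hao2 completed the 4 with the smallest F p-values. Of 12 female-biased genes 4 passed the F test, 1 was higher and 2 lower (median -0.27). Srd5a1, a steroid 5-alpha-reductase (-1.50; adjusted p = 0.009), and the P450 Cyp2c7 (-0.84; adjusted p = 0.010) were lower, and Hsd17b1, a 17-beta-hydroxysteroid dehydrogenase, was higher (0.67; adjusted p = 0.022). Cyp17a1, a P450 of steroid synthesis, passed the F test (adjusted p = 0.005) with a difference of 1.01 that did not pass (0.210).

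Markers of other cells also differed between ages, and their part in these results was not tested. Of all probes tested, 35.6% passed the F test, 12.4% the test between 24 and 3 months and 23.9% that between 24 and 18 months. The 6 macrophage markers all passed the F test and 4 were higher at 24 than at 3 months. Their mean log2 value was 1.59 to 1.70 at 3 months and already 2.19 to 2.40 at 9 months. It was 1.91 to 2.24 at 12, 1.97 to 2.25 at 18 and 2.44 to 3.33 at 24 months. Within the 24-month group that value was highest, at 3.33, on array 3. Of 8 lymphocyte markers 6 were measured, 5 passed the F test and 1 was higher at 24 than at 3 months. Their mean log2 value was -2.29 to -2.24 at 3 months, -3.89 to -3.08 at 9, -3.10 to -2.08 at 12 and -3.45 to -2.85 at 18 months. On the 24-month arrays it was -2.02, -1.21, -0.62 and -2.35 in order, highest on arrays 2 and 3. Of 9 stellate and endothelial markers 6 passed, 1 higher and 4 lower, and of 5 measured cholangiocyte markers 3 passed, 1 higher. Between 24 and 18 months 4 lymphocyte markers were higher and 1 lower (median 1.95), 4 of 5 cholangiocyte markers were higher (median 1.26), 3 macrophage markers were higher (median 0.70) and 3 stellate and endothelial markers were higher and 1 lower (median 0.55). In a piece of whole liver, fewer cells of a type and less RNA per cell cannot be told apart. For Spink3, 10 of 22 pancreatic acinar markers were measured and 12, among them Cpa1, Prss1 and Pnlip, were not well above background on all arrays of any age. From 3 to 24 months 1 acinar marker was higher, Cpb1, which was not well above background at 3 months, and 4 were lower, and between 18 and 24 months 1 was higher and 7 lower. The mean log2 value was -2.48 to -1.96 at 3 months, -2.02 to -1.66 at 9 months and -2.01 to -1.64 at 12 months, so that 9 and 12 months overlapped. It was -1.72 to -1.49 at 18 months and -2.84 to -2.01 at 24 months.

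The probes of other genes whose profile over the 16 arrays was most like that of a member were found by the smallest root mean square difference of centred log2 values, among 12479 named probes above background on every array. For Obp3 these were Notch1, a receptor (0.87 log2 units; r = 0.98 over 16 arrays), Rps26, a ribosomal protein (1.16), and Or4f7c, an olfactory receptor (1.19), and for Mup4 they were Notch1 (0.56), Or4f7c (0.83) and Apol7b (0.91). For Mup5 they were Wdr62 (0.27), Sult1e1, the oestrogen sulfotransferase (0.29), and Bhmt, a methyltransferase of homocysteine (0.30). For its second probe they were Or4f7c (0.24), Wdr62 (0.45) and Notch1 (0.46), followed by Car3 (0.47; r = 0.92), the male-biased gene listed as Ca3. The probes of Or4f7c and Wdr62 share 11 bases, TGGCCCCACCC, with the LOC259246 probe that lists an Obp3 transcript, and 1.07% of 25679 probes shared a stretch as long with any member or family probe. The longest stretch shared by the Notch1 probe was 7 bases, as for 87.3% of probes. Whether alpha-2u globulin transcripts hybridise to these probes was not tested. For Rup2 the most alike were Bphl (0.14), Inhca (0.15) and Cyp2b3, a liver P450 (0.15), and for its second probe Mpzl2 (0.42), Slc16a4 (0.53) and Dusp1, a phosphatase induced by stress (0.54). For Spink3 they were Mettl7a (0.45), Hprt1 (0.48) and Cd36, a fatty acid transporter (0.48). For the second Spink3 probe they were Nr1d2, a repressor of the circadian clock (0.32; r = 0.94), Tef, a PAR-domain factor of the same clock (0.37), and Tp53i13 (0.38). Dbp, given above, moved between the same ages, and the part of the hour of collection was not tested. These correlations share the arrays and are descriptions.

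The promoters of the 3 lipocalin genes were compared in RefSeq sequence on GRCr8, from 250 bases before to 50 bases after each annotated start. Obp3 and Mup4 were 97.2% identical over 281 aligned bases, Obp3 and Mup5 97.5%, and Mup4 and Mup5 96.3% over 299. Each held 1 match to TTGCNNAA, a C/EBP-type site searched on both strands and present in 10.6% of 33469 promoters, and 1 match to TATAAA, searched on the plus strand and present in 8.8%. The stretch from the first to the second is shown with both matches in capitals. It lies on the minus strand at chr5:79640703-79640881 for Obp3, chr5:79759543-79759719 for Mup4 and chr5:79999742-79999919 for Mup5.
Obp3 promoter: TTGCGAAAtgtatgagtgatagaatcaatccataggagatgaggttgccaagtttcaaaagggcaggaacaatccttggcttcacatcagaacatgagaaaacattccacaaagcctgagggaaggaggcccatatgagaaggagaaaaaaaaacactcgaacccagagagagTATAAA
Mup4 promoter: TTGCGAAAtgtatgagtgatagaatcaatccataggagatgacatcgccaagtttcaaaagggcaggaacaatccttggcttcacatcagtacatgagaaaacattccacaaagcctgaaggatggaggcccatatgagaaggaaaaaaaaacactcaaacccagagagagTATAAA
Mup5 promoter: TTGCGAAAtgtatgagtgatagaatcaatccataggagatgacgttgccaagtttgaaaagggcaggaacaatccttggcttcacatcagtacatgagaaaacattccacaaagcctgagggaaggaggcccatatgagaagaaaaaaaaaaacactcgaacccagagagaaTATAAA

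The C/EBP-type match lay 206 bases before the annotated start of Obp3, 223 before that of Mup4 and 224 before that of Mup5, and the TATA match 33, 52 and 52 bases before. AGAACA, a half-site of steroid hormone receptors searched on both strands and found in 20.7% of promoters, was present at 2 places in Obp3 and in none of the other 4. The match 238 bases before the Obp3 start lies in a stretch that the windows of Mup4 and Mup5 do not cover, so it was not compared with them. At the match 118 bases before the start, the letters of Mup4 and Mup5 differ from those of Obp3. TTCNNNGAA, the STAT5 element, palindromic and found in 8.87% of promoters, was present in Rup2 alone, 195 bases before its start. A match to these letters is a description of the sequence, and a missing match says only that the letters are not in this window.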

How the data were processed

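Per the file headers, each array was scanned in 1 colour and read with Agilent Feature Extraction 10.7.3.1, and the deposited processed signal is a background-subtracted intensity with no normalization between arrays. Flags for well above background, saturation and outliers come from the same files. The authors' deposited value table is on a log2 scale, with a normalization that the sources used here do not state, and served as an alternative. Per the labels' protocols, total RNA was extracted with a mirVana kit. The labelling kit named there is one for miRNA although the array measures mRNA, which was not resolved.

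The processed intensity was taken to log2 and each array's 75th percentile subtracted. Outlier spots were set to missing (43 values among the probes kept). Probes had to be flagged above background throughout 1 age group or more (25698 of 41012). All of these entered a model with 5 age means, fitted with limma 3.58.1 in R 4.3.3 (with the data.table package, version 1.17.8). It was two-sided, with Benjamini-Hochberg adjustment over all kept probes and a threshold of 0.05, and the trend was a straight line in months. On simulated data with 25655 probes, the 24 against 3 months contrast recovered 50 of 100 changes of 1 log2 unit and 91 of 100 of 2 log2 units. The simulation used independent noise with 1 spread per probe at all ages. In the data the median SD of probes above background on every array was 0.085 at 3 months and 0.255 at 24 months. The recovery therefore cannot be carried over to the member probes. Errors are SD between arrays or SE of the fit. Precision is limited by how many arrays an age has.

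The members and gene lists were chosen with earlier results of these data known. All member probes are reported. Family probes are named where the F test called them or their sequence matches a member's, list genes by the smallest F p-value (up to 4), and similar profiles by the smallest root mean square difference (3). Other names complete small counts or, for Car3, a list, and were chosen after their values were seen. 1 gene that the rule would name is not reported here. Current symbols came from RefSeq (18028 probes matched). Probe positions are on rn4 and promoters on GRCr8. Replicate numbers did not pair the arrays. Their deviations correlated at -0.37 to 0.19 over 25 same-numbered pairs. Alternatives were quantile normalization, normexp (offset 50), the deposited value table, other filters and probe summaries, slide or replicate block, array weights, log2 age, the compared ages alone and each array left out. Leaving out 3 arrays and the scan day as a random block were added after seeing the data. Figures were drawn with matplotlib 3.10.9, pandas 2.3.3 and numpy 2.4.6 in Python 3.11.15.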

Additional observations from a re-analysis of the deposited data

How the results depend on the processing

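Of 2478 recomputed member values (2260 differences and 218 F tests), 2249 kept their side of the threshold, 151 lost and 78 gained a call. The sign changed in 61 differences, none of them past the threshold in either setting. Counts changed more, and the cause was not tested. Over all probes, any age difference was called for 9137, and for 1757 with normexp, 5661 with the slide and 2766 with the scan day as a random block, 5988 with the replicate block, 17688 with array weights and 14315 without the 3 arrays. The 3175 calls between 24 and 3 months became 533 with normexp, 2101 for probes above background on all arrays, 304 with the slide block, 89 with the scan day block, 6109 with array weights and 5872 without the 3 arrays, and 1690 to 4345 without 1 array each. The 6132 calls between 24 and 18 months became 1016 with normexp, 1013 with the slide block and 745 with the scan day block. The 1400 trends became 198 with normexp, 770 for probes above background on all arrays, 51 with the slide block, 4 with the scan day block, 700 with the replicate block, 5172 with array weights and 2293 without the 3 arrays, and 692 to 1925 without 1 array each.

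Of the 8 member probes, 5 were called for any age difference, 3 with the slide block, 2 with the scan day block and 3 to 7 without 1 array each. The 3 called lower between 24 and 3 months became 1 with normexp, the slide block, the scan day block or the 2 ages alone, 6 with array weights or without the 3 arrays, and 1 to 6 without 1 array each. The 3 called lower between 24 and 18 months became 0 with the slide or scan day block (limma; 2 and 0 of the 8 probes at an unadjusted p under 0.05), 1 with the 2 ages alone, 5 with array weights and 2 to 4 without 1 array each. The 2 trends became 1 with normexp or the series value table and 0 with the slide or scan day block (limma; 6 and 2 at an unadjusted p under 0.05). Settings with 1 value per gene name were not counted for member probes. With the replicate block 5 member probes were called for any age difference and 3 lower between 24 and 3 months. That block was not supported by a pairing of the numbers. The consensus correlation was 0.69 within slides and 0.46 within scan days. The member probes were flagged well above background on all arrays, yet normexp background correction ended 11 of the 21 calls. The part of background in these values was not tested.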
